A study of Mus musculus with 3 samples.

Results

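The 4 Id genes (Id1, Id2, Id3 and Id4) and 6 genes of the BMP signalling core (Smad1, Smad5, Bmpr1a, Bmpr2, Acvr1 and Bmp4) were followed over 3 arrays of CT26.WT, an established mouse colon carcinoma cell line. They are 10 of 18193 genes that the platform annotation names by a single symbol, and 27 probe sets carry exactly one of these symbols (8 for the Id genes and 19 for the others). A probe set is the group of short probes on an Affymetrix array that reads one transcript or part of it. The 10 genes were chosen with the signals of these same arrays known, the high Id signals among them, so every ratio against control below is a description. One culture was given 4 µg/ml of recombinant mouse S100a8 protein and another 4 µg/ml of recombinant mouse S100a9 protein, each for 24 h after 12 h without serum. The control was also held in serum-free medium. Its labels disagree on what was added, one naming BSA and the others normal saline, and they state the 24 h only for the proteins. Both proteins bind calcium and are released by myeloid cells during inflammation. Each condition has 1 array, so no difference below could be set against replicate spread, no test was made, and a difference between cultures cannot be told apart from one between arrays.

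BMPs are secreted ligands of the TGF-beta family. They bind paired type I and type II receptor kinases, which phosphorylate Smad1 and Smad5, and these enter the nucleus with Smad4 and switch on target genes. Id genes are classical direct targets of this route, although growth factors and serum also raise them. Their proteins hold a helix-loop-helix domain but no basic DNA-binding region, and they hold E proteins and other partners away from E-box DNA. In the intestine BMP signalling is known for restraining stem cells and favouring differentiation.

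The promoters of Id2 and Id3 are shown as examples of the DNA just upstream of Id genes. Only the nearest 250 bases were read, so Smad elements further upstream would not be seen. Whether Smad1 or Smad5 acts within these windows was not tested. A RefSeq table of promoters on GRCm38.p6 matched 9 of the 10 members, all but Id1. Each line gives the 250 bases just before the annotated start, 5′ to 3′ on the gene's own strand, for Id2 at chr12:25096093-25096342 (minus strand) and Id3 at chr4:136143572-136143821 (plus strand). Capitals mark GGCGCC, the GC-rich element that BMP Smads can bind, CAGAC or its complement GTCTG, the Smad-binding element, and CANNTG, the E-box.
Id2: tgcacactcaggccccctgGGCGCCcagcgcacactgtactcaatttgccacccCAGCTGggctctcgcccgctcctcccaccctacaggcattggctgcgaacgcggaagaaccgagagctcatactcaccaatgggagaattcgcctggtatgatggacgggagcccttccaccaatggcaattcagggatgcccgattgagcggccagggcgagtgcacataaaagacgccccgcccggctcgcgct
Id3: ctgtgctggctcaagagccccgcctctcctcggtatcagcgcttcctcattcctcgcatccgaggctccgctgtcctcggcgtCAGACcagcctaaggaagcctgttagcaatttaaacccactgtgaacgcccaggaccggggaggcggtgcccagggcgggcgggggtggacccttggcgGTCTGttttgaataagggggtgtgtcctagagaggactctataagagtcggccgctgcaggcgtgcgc
The Id2 window held GGCGCC from 231 to 226 bases before the start and an E-box, CAGCTG, from 196 to 191. The Id3 window held CAGAC from 167 to 163 bases before the start and GTCTG from 68 to 64, with neither GGCGCC nor an E-box. Both strands were searched, and the CAGAC match of Id3 overlaps a TGACG on the opposite strand. Of 32851 promoter windows of the same length, 9.59% held GGCGCC, 42.2% held CAGAC and 66.2% held CANNTG. Of the 9066 windows that belong to compared genes, the shares were 17.1%, 40.6% and 56.5%. Matches to short motifs are therefore frequent, and a match is not evidence of binding. Among the first windows of the matched members, GGCGCC was also found in Id4, Bmpr1a and Bmpr2, whose signals did not share one pattern.

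The signals are linear MAS5 values. Their median over the 3 arrays, 76.0, was used as a floor, and lower values were set to it before log2 ratios were taken. A gene with several probe sets was read from the one whose mean log2 signal was highest, and it was compared where that mean lay above the floor, which held for 11138 genes and for 8 members (Id1, Id2, Id3, Smad1, Smad5, Bmpr1a, Bmpr2 and Acvr1). Of the 27 probe sets, 19 were above the floor on every array, 7 were below it on every array and 1 was mixed. Over the 11138 genes the median log2 ratio to control was 0.01 with S100a8 (SD 0.26) and 0.00 with S100a9 (SD 0.19). Of these genes 52.5% were higher than control with S100a8 and 51.2% with S100a9, by any amount. A fold of 1.5 (0.585 on the log2 scale) was used only as a descriptive size. With S100a8, 1.13% of the compared genes were at least that much higher than control and 1.91% at least that much lower. With S100a9 the shares were 0.251% and 0.853%.

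Id3, Id1 and Id2 all gave their lowest signal on the control array and their highest on the S100a8 array. The used probe sets of the BMP receptor and Smad genes read close to control with both proteins. Bmp4 and Id4 were under the floor on all 3 arrays. At the 1.5-fold size, 3 of the 8 compared members were higher with S100a8 (Id1, Id2 and Id3), 1 was higher with S100a9 (Id3), and 0 were lower with either protein. Because the members were chosen on these ratios, nothing is read from those counts against the background shares.

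**Figure D1:**
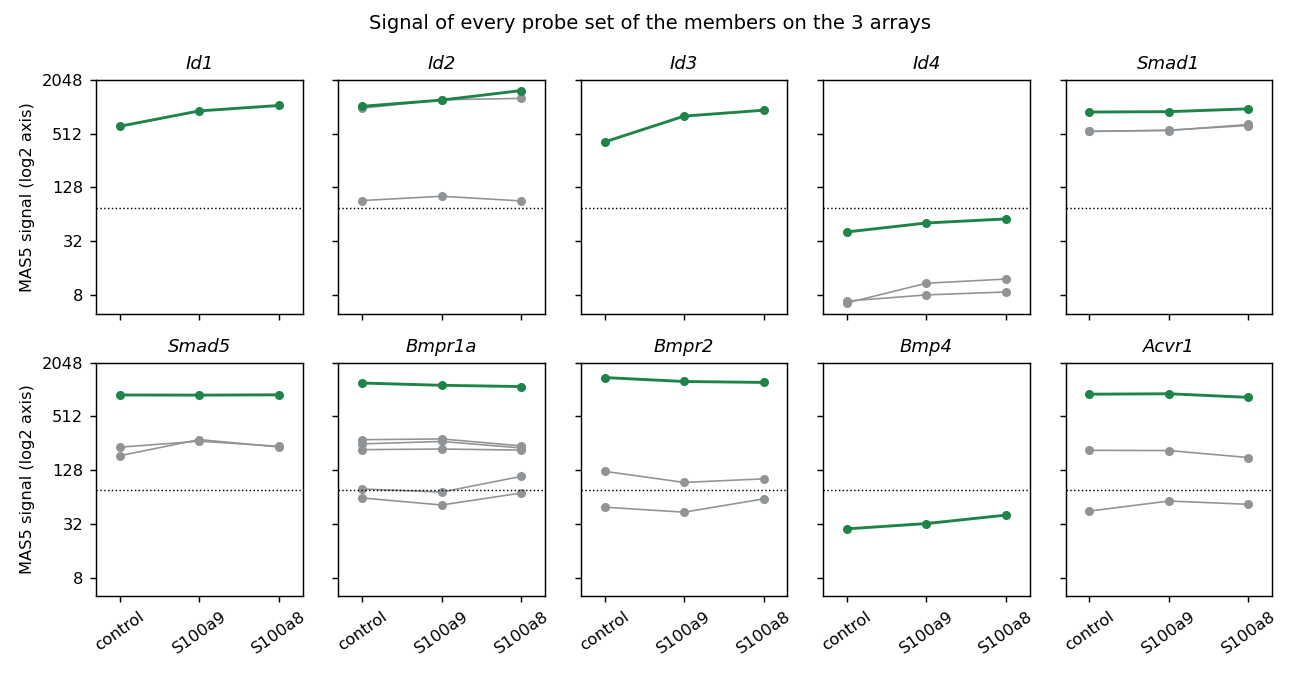
Signal of each of the 27 probe sets on the control, S100a9 and S100a8 arrays, on a log2 axis, in one panel per gene. The green line is the probe set used for the gene, grey lines are the others and the dotted line is the floor of 76.0. Id1, Id2 and Id3 climb from control to S100a8, the used probe sets of the receptors and Smads are nearly level, and Id4 and Bmp4 lie below the floor.

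Id3 had the widest difference of the members. Its only probe set (1416630_at) read 412 in control, 802 with S100a9 and 934 with S100a8. The S100a8 signal was 2.27-fold that of control (1.18 on the log2 scale) and the S100a9 signal 1.95-fold (0.96). Among the 11138 genes these were rank 3 and rank 2 from the top.

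Id1 is the family member most often read as a BMP response gene, and it followed the same order. Its only probe set (1425895_a_at) read 618 in control, 918 with S100a9 and 1055 with S100a8. The S100a8 ratio was 1.71-fold (0.77 on the log2 scale, rank 29) and the S100a9 ratio 1.49-fold (0.57, rank 34). Id1 was thus past the 1.5-fold size with S100a8 and just short of it with S100a9 (0.57 against 0.585).

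Id2, which is widely expressed in epithelial and lymphoid cells, has 3 probe sets above the floor, and they did not give one answer. The one with the highest mean (1435176_a_at) read 1033 in control, 1213 with S100a9 and 1550.0 with S100a8. Its ratios were 1.501-fold with S100a8 (0.59 on the log2 scale, rank 125) and 1.17-fold with S100a9 (0.23), and the first exceeded the 1.5-fold size by only 0.001 on the log2 scale. A second bright probe set (1422537_a_at) read 983 in control, 1222 with S100a9 and 1267 with S100a8, which gives log2 ratios of 0.31 and 0.37. The third (1453596_at) lay near the floor, at 91.3 in control, 102 with S100a9 and 90.4 with S100a8. Both bright probe sets were thus higher than control with each protein, but they put the S100a8 ratio 0.22 apart on the log2 scale. With the mean of all 3 probe sets the S100a8 log2 ratio of Id2 was 0.31, and under median centring it was 0.54, neither of which is past 1.5-fold.

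The size of such disagreement can be read from other genes, as a measure of the probes and not of the cultures. In 4703 genes with at least 2 probe sets above the floor, the log2 ratios of the brightest pair differed by a median of 0.14 for S100a8 and 0.12 for S100a9, and by 0.45 and 0.36 at the 90th percentile. Id1 and Id3 have a single probe set each, so no second reading of them exists here, and the spread between cultures was not measured for any member.

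Id4, a family member best known from neural progenitors, could not be compared. Its brightest probe set (1423260_at) read 40.6 in control, 51.2 with S100a9 and 56.8 with S100a8. The others read 6.53, 10.9 and 12.1 (1450928_at) and 6.85, 8.03 and 8.66 (1423259_at), in the same order of arrays. All 3 therefore repeat the order of Id1, Id2 and Id3 at signals below the floor. Over the 20953 probe sets below the floor on every array, 60.6% were higher with S100a8 than in control, with a median log2 ratio of 0.09. With S100a9 45.9% were higher, with a median of −0.03. The part of this shift of dim signals in the Id4 values was not tested.

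**Figure D2:**
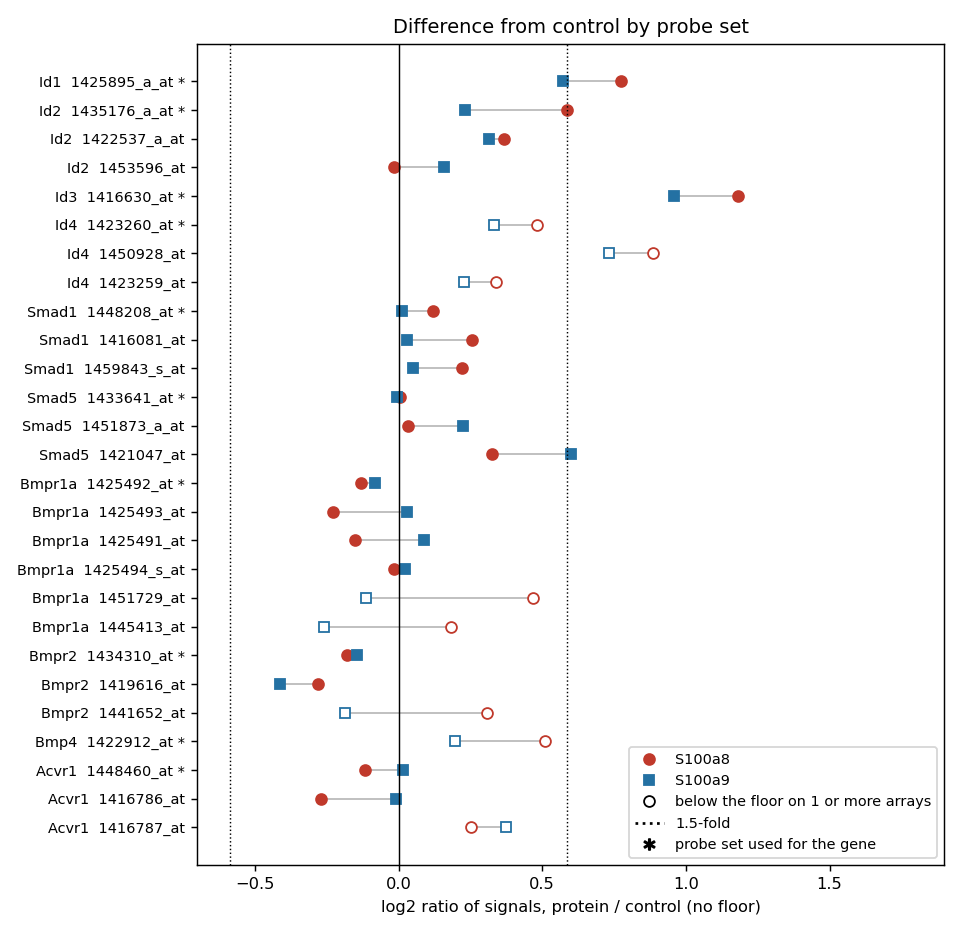
log2 ratio of signals against control for each of the 27 probe sets, with S100a8 as red circles and S100a9 as blue squares, computed without the floor. Open symbols mark probe sets below the floor on at least 1 array, asterisks mark the probe set used for the gene, and dotted lines mark 1.5-fold. The filled symbols of Id1 and Id3 lie apart from those of the receptors and of Smad1, whose values stay within −0.41 and 0.26, while one Smad5 probe set reaches 0.60 with S100a9.

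Smad1 and Smad5 carry the BMP signal to the nucleus. The used Smad1 probe set (1448208_at) read 892 in control, 900 with S100a9 and 968 with S100a8, which gives log2 ratios of 0.01 with S100a9 and 0.12 with S100a8. The other Smad1 probe sets read 542, 554 and 647 (1416081_at) and 541, 560 and 630 (1459843_s_at) in the same array order. All 3 were highest with S100a8, with log2 ratios between 0.12 and 0.26, and within 0.05 of control with S100a9.

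The used Smad5 probe set (1433641_at) read 889 in control, 885 with S100a9 and 892 with S100a8, so that neither log2 ratio exceeded 0.01 in size. The dimmer Smad5 probe sets gave other values. One (1451873_a_at) read 231 in control, 270 with S100a9 and 237 with S100a8. The other (1421047_at) read 186, 282 and 233, which gives log2 ratios of 0.60 with S100a9 and 0.33 with S100a8. The S100a9 value is past 1.5-fold and differs from that of the used probe set by 0.61, so the level of Smad5 with S100a9 depends on the probe set read.

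Bmpr1a and Acvr1 are type I receptors and Bmpr2 is a type II receptor. The used Bmpr2 probe set (1434310_at) read 1391 in control, 1258 with S100a9 and 1228 with S100a8, which was 1.11-fold and 1.13-fold lower than control. A dimmer one (1419616_at) was also lower, at 124 in control, 93.4 with S100a9 and 102 with S100a8. The third (1441652_at) was below the floor at 49.4, 43.4 and 61.1. Both Bmpr2 probe sets above the floor were thus highest in control, with log2 ratios between −0.41 and −0.15.

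The used Bmpr1a probe set (1425492_at) read 1208 in control, 1140.1 with S100a9 and 1104 with S100a8, with log2 ratios of −0.08 and −0.13. Across the 4 Bmpr1a probe sets above the floor on every array, the S100a8 log2 ratios ran from −0.23 to −0.02 and the S100a9 ratios from −0.08 to 0.09. The other Bmpr1a probe sets were the mixed one (1451729_at), at 78.9 in control, 72.9 with S100a9 and 109 with S100a8, and one below the floor (1445413_at), at 62.6, 52.3 and 71.1. With S100a8 the dim probe sets of Bmpr1a were therefore higher than control and the bright ones lower.

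The used Acvr1 probe set (1448460_at) read 907 in control, 917 with S100a9 and 835 with S100a8, with log2 ratios of 0.02 and −0.12. A second (1416786_at) read 214, 212 and 177, and the third (1416787_at) lay below the floor at 44.7, 57.9 and 53.2. Acvr1 above the floor was lowest with S100a8 in both probe sets and near control with S100a9.

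Bmp4, the only ligand among the members, had 1 probe set (1422912_at), below the floor at 28.3 in control, 32.4 with S100a9 and 40.3 with S100a8. Its level in these cells therefore has only an upper bound here, and no ratio is given.

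Over the 5 compared receptor and Smad genes the S100a8 log2 ratios ran from −0.18 to 0.12 (median −0.12) and the S100a9 ratios from −0.15 to 0.02 (median −0.01). For Id1, Id2 and Id3 the medians were 0.77 and 0.57. Of the 14 receptor and Smad probe sets above the floor, 6 were higher and 8 lower than control with S100a8, and 9 were higher and 5 lower with S100a9. With S100a8 all 6 of these Smad probe sets, of Smad1 and Smad5, were higher than control. All 8 of these receptor probe sets, of Bmpr1a, Bmpr2 and Acvr1, were lower. Most differences were small (−0.28 to −0.02 for the receptors and 0.01 to 0.33 for the Smads). Under median centring 4 Smad probe sets were higher and 2 lower, and under quantile normalization 1 receptor probe set was higher and 7 lower. With S100a9 5 Smad probe sets were higher and 1 lower, and the receptors divided into 4 and 4. The receptor probe sets not above the floor on every array were higher with S100a8, at 0.47 and 0.18 for Bmpr1a, 0.31 for Bmpr2 and 0.25 for Acvr1. Outside the members, Smad7 had a log2 ratio of −0.09 with S100a8. Smad4 was level at −0.003, with 1 of its 3 probe sets higher. Of the further receptors and co-receptors 3 were higher and 3 lower with S100a8. The S100a8 split is therefore not a rule for these classes of gene.

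**Figure D3:**
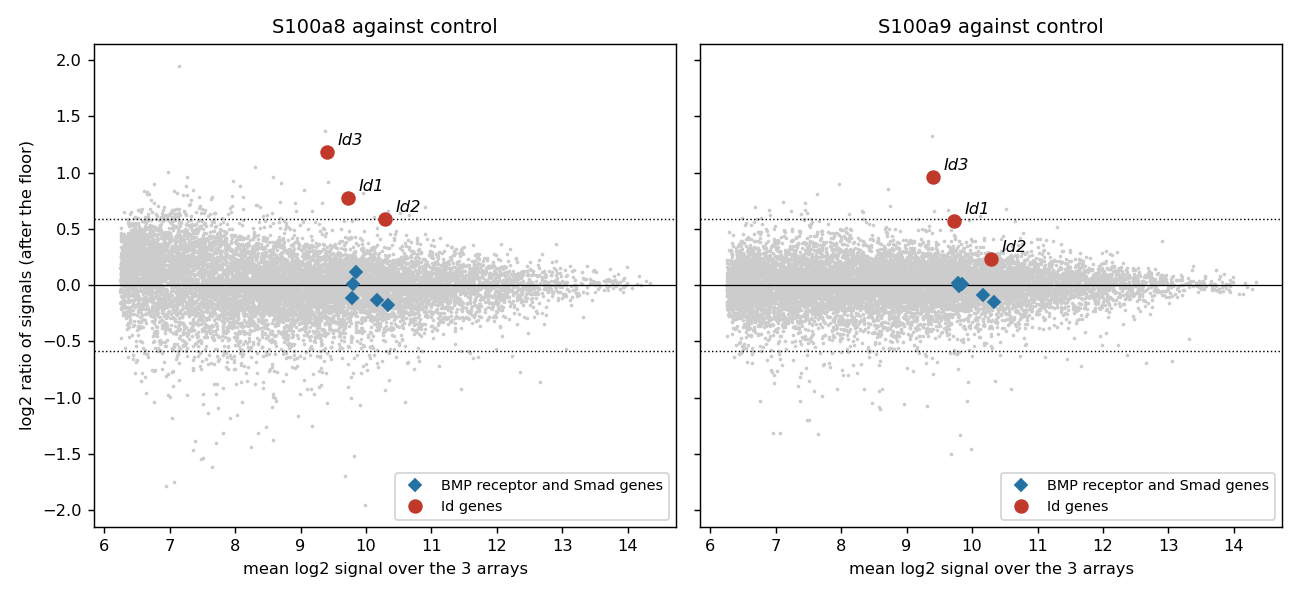
log2 ratio to control (vertical) against the mean log2 signal of the 3 arrays (horizontal) for the 11138 compared genes in grey, with S100a8 on the left and S100a9 on the right. Red circles are Id1, Id2 and Id3, blue diamonds are the 5 compared receptor and Smad genes, and dotted lines mark 1.5-fold. The Id genes were chosen with their high ratios known, so the place of the red circles is only described. The diamonds sit inside the grey band.

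The spread of ratios narrows as the signal grows, and the Id genes are fairly bright. The compared genes were cut by mean signal into 4 bins of equal size, and Id1 and Id3 lie in the bin from 460 to 1109 and Id2 in the brightest, from 1110 upward. In the bin of Id1 and Id3, 0.395% of genes were at least 1.5-fold higher with S100a8 and 0.180% with S100a9. In the bin of Id2 the shares were 0.215% and 0.0718%, and in the dimmest bin 2.87% and 0.467%. These shares describe the bins, and because the Id genes were chosen with their ratios known, nothing is read from them about the Id genes.

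Set against each other, the proteins differed by less than 1.5-fold in each Id gene, and the used probe sets read lower with S100a9. The S100a9 signal was 1.15-fold lower than the S100a8 signal for Id1, 1.28-fold lower for Id2 and 1.16-fold lower for Id3. On the log2 scale these are −0.20, −0.35 and −0.22. The median signal of the whole array was 78.6 with S100a8, 73.6 with S100a9 and 76.1 in control. Under median centring the 3 differences shrank to −0.11, −0.26 and −0.13, and under quantile normalization they were −0.23, −0.36 and −0.23. Their size thus depends on the scaling of the arrays. Of the 8 compared members, 0 differed by 1.5-fold in either direction between the proteins, where 0.0988% of all compared genes were higher and 1.01% lower with S100a9. The second bright Id2 probe set put the S100a9 log2 signal only 0.05 below that with S100a8. The order control, S100a9, S100a8 from low to high held for 4 members (Id1, Id2, Id3 and Smad1) and for 19.7% of the 10715 genes above the floor on all arrays, so the order by itself is common. Bmpr1a and Bmpr2 had the reverse order, which 24.1% of those genes had.

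The genes whose pair of ratios lay nearest to that of Id3 were sought among 10714 others above the floor on every array, by Euclidean distance of the log2 ratios. They were Dynap (distance 0.29), Klk10 (0.33), Suox (0.41), Serpinb9b (0.41) and Dlk2 (0.44). Dynap read 278 in control, 504 with S100a9 and 522 with S100a8. Serpinb9b, a serine protease inhibitor, read 358, 896 and 923 and was the one of these with higher ratios than Id3 with both proteins. Klk10 is a kallikrein-family protease and Suox is sulfite oxidase, and none of the 5 is among the lists of BMP pathway genes used here. Each likeness rests on 2 ratios that share the control array.

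The rest of the pathway was read from 5 lists of ligands, receptors, antagonists, Smads with their regulators, and other target genes. They hold 64 genes besides the members, of which 58 had a probe set and 35 were compared. With S100a8, 20 were higher and 15 lower than control, with 1 and 3 of them past 1.5-fold and a median of 0.07 on the log2 scale. The 1 past that size upward was Hamp2, which was compared only through its S100a8 signal. With S100a9, 15 were higher and 18 lower, with 0 and 2 of them past that size and a median of −0.01. The lists as a whole lay close to the medians of all compared genes, 0.01 and 0.00. Of all compared genes 52.5% were higher than control with S100a8 and 51.2% with S100a9.

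Of 9 ligands with a probe set, 3 were compared. Bmp2, a ligand close to Bmp4, was highest in control at 352 and read 265 with S100a9 and 230.0 with S100a8, which is 1.33-fold and 1.53-fold lower (under 1.5-fold with both after quantile normalization). Bmp7 and Bmp8a, further BMP ligands, were dim, and Bmp7 passed the floor only with S100a8 (91.9). Bmp7 was thus compared only through that array, and nothing is read from its S100a8 ratio. Bmp8a read 86.4 in control, 92.3 with S100a9 and 102 with S100a8. The other 6 ligands were below the floor on all arrays, as Bmp4 was.

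Of 8 further receptors and co-receptors, 6 were compared, with 3 higher and 3 lower for S100a8 (2 and 4 under median centring), 4 and 2 for S100a9, and no difference of 1.5-fold. Acvr2b, a type II receptor shared with activins, read 145 in control, 188 with S100a9 and 191 with S100a8. Rgma, a BMP co-receptor, had log2 ratios of 0.14 with S100a8 and 0.07 with S100a9. The lowest with S100a8 were Acvrl1, a type I receptor known from endothelium (−0.28 and −0.09), and Acvr2a, a type II receptor (−0.11 and −0.11, with 1 of its 2 probe sets higher than control for S100a9). The list medians were −0.02 and 0.04, and the first became 0.03 under quantile normalization.

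Most antagonists are secreted proteins that bind BMPs or related ligands and keep them from their receptors. Of 14 with a probe set, 6 were compared, and all 6 were higher than control with S100a8 (5 of 6 when ratios were centred by brightness). With S100a9 5 were higher and 1 lower (4 and 2 when centred by brightness), and none reached 1.5-fold with either protein. The S100a8 log2 ratios of the 6 were small, from 0.06 to 0.31. Over all compared genes 52.5% were higher with S100a8 and 51.2% with S100a9. Fst, or follistatin, read 327 in control, 393 with S100a9 and 404 with S100a8. Fstl3, its relative, had log2 ratios of 0.16 with S100a8 and 0.18 with S100a9. Bmper (0.06 and 0.00) and Nbl1 (0.07 and −0.10) had the lowest ratios with S100a8. Noggin (Nog), chordin (Chrd) and Bambi, the decoy receptor and BMP target, were below the floor on all arrays.

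Among the other Smads and their regulators 11 of 14 were compared, and 9 of the 11 were lower than control with each protein (7 to 10 over the scalings tried). That count holds for the used probe sets only. Smurf2 counted as lower with S100a8, though 2 of its 3 probe sets above the floor were higher. Of 5 such Ppm1a probe sets, 2 were higher with S100a8 and 3 with S100a9, and 1 of 2 of Smurf1 was higher with S100a9. Smad4 counted as lower at log2 ratios of −0.003 with S100a8 and −0.009 with S100a9. None reached 1.5-fold, although 1, Skil, did so with S100a8 under median centring. Skil and Ski, corepressors that bind Smads, had the lowest ratios. Skil read 1436 in control, 1117 with S100a9 and 965 with S100a8 (1.28-fold and 1.49-fold lower). The used Ski probe set had log2 ratios of −0.35 with S100a8 and −0.25 with S100a9, but its second probe set above the floor had 0.07 and 0.25, so the direction of Ski depends on the probe set read. The highest ratios with S100a8 were those of Tob1, an antiproliferative protein described as a Smad repressor (0.40, and 0.01 with S100a9), and Lemd3, an inner nuclear membrane protein that binds Smads (0.11 and −0.11). Smad6, an inhibitory Smad and BMP target, was below the floor on all arrays.

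Other genes described as BMP targets lay on both sides of control. Of 17 with a probe set, 10 were compared, and with S100a8 7 were higher and 3 lower (6 and 4 when centred by brightness), with 1 and 2 past 1.5-fold. With S100a9 3 were higher and 6 lower, with 0 and 2 past that size. Atoh8, a basic helix-loop-helix factor, came nearest to the Id genes at 86.3 in control, 126 with S100a9 and 123 with S100a8 (log2 ratios 0.54 and 0.51, the former past 1.5-fold under median centring and quantile normalization). It has 1 probe set, whose signals lay near the floor of 76.0, where ratios spread more widely than at the signals of the Id genes. Hamp2, a hepcidin gene, was above the floor only with S100a8 (120), at least 1.57-fold higher than control, which lay at 74.2. Hamp2 was compared only through its S100a8 signal, so nothing is read from its ratio there. It was the only target past 1.5-fold upward with S100a8. When ratios were centred by brightness it was short of that size (0.50 on the log2 scale). Hes1, better known as a Notch target, went the other way, at 363 in control, 183 with S100a9 and 137 with S100a8, which is 1.98-fold and 2.65-fold lower. Dlx2, a homeobox gene, read 148 in control and 91.7 with S100a9, and was below the floor with S100a8, so at least 1.95-fold lower there. Smad7, an inhibitory Smad, differed by −0.09 on the log2 scale with each protein.

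**Figure D4:**
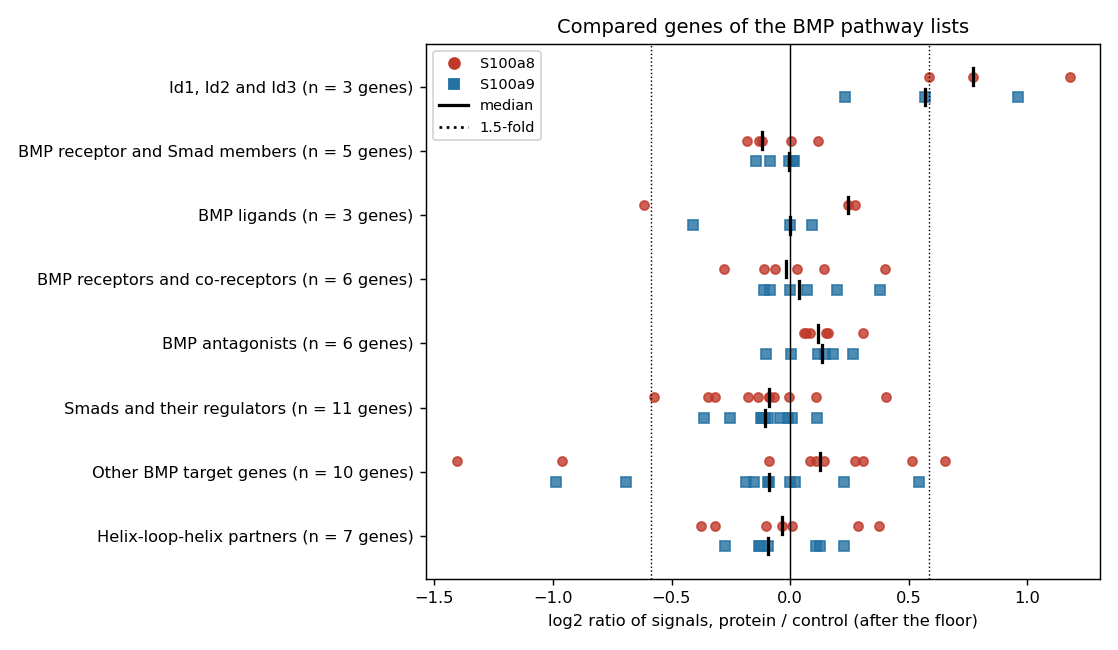
log2 ratio to control of each compared gene in the Id genes, the receptor and Smad members and 6 further lists, with S100a8 as red circles and S100a9 as blue squares. Black ticks are list medians, dotted lines mark 1.5-fold and n counts compared genes. The 3 Id genes lie to the right of 0, as do the 6 antagonists with S100a8 at smaller ratios, most other lists have genes on both sides of it, and Hes1 and Dlx2 are the far-left points among the other targets.

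Helix-loop-helix proteins are the partners that Id proteins bind or displace. Of 19 with a probe set, 7 were compared, with 3 higher and 4 lower for each protein (2 and 5 with S100a8 under median centring) and none at 1.5-fold. Tcf4, an E protein, read 1771 in control, 1465 with S100a9 and 1364 with S100a8 (log2 ratios −0.27 and −0.38). Tcf3, the E protein gene of E12 and E47, had log2 ratios of −0.32 with S100a8 and −0.13 with S100a9. Tcf12, the third E protein gene, stayed at 0.01 and −0.09, with probe sets on both sides of control. Ascl2, an intestinal stem cell factor (0.38 and 0.13), and Tcf15 (0.29 and 0.11) had the highest ratios with S100a8, both at signals near the floor.

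Of 7 genes described as regulated by Id proteins, 4 were compared. Thbs1, or thrombospondin, described as repressed by Id1, read 193 in control, 180.0 with S100a9 and 135 with S100a8. Cdkn1a, the cell cycle inhibitor p21, had log2 ratios of −0.29 with S100a8 and −0.20 with S100a9. Ccnd1, cyclin D1, read 3842 in control, 4082 with S100a9 and 4944 with S100a8, and Ccne1, cyclin E1, had log2 ratios of 0.13 and 0.08. None of the 4 differed by 1.5-fold, except that 1, Thbs1, was past that size with S100a8 when ratios were centred by brightness.

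Marker genes were read beside these values, since CT26.WT is labelled a colon carcinoma line. Of 9 epithelial markers 4 were above the floor, while Cdh1, Krt8, Krt19, Vil1 and Cldn4 were below it on all arrays. Krt18 read 1447 in control, 1236 with S100a9 and 1032 with S100a8, and Krt20 read 326, 325 and 307. Cdx2 (101, 109 and 122) and Epcam (101, 85.5 and 113) were dim and near the floor. Of 7 mesenchymal markers 6 were above it on all arrays (Vim, Fn1, Cdh2, Zeb1, Snai2 and Twist1), and Snai1 was below. The epithelial label thus rests on part of its markers, with E-cadherin (Cdh1) not above the floor. Of 8 macrophage and granulocyte markers 5 were above the floor, while Ptprc, Adgre1 and Itgam were below it on all arrays. Of the 5, 4 were higher than control with S100a8 and 5 with S100a9, where 52.5% and 51.2% of all compared genes were higher. Their median log2 ratios were 0.47 and 0.45, against 0.01 and 0.00 over all compared genes. The summed signals of the list were 2289.8 in control, 2571 with S100a9 and 2297 with S100a8. Of these sums, Cd14 gave 1413, 1418 and 1075. Within that list Cd68 had log2 ratios of 0.63 with S100a8 and 0.53 with S100a9. In the same order Cd53 had 0.48 and 0.59, Csf1r 0.47 and 0.23, Lyz2 0.20 and 0.45, and Cd14 −0.39 and 0.01. Of 3 Csf1r probe sets above the floor, 3 were higher than control with S100a8 and 2 with S100a9. Of 7 endothelial markers 3 were above the floor, with sums of 393, 410.4 and 473 in control, S100a9 and S100a8, and Pecam1, Cdh5, Tek and Emcn were below it. Of 5 lymphoid markers 3 were above it, with sums of 981, 905 and 1101, and Cd79a and Ncr1 were below. Each sum includes the markers of its list that lay below the floor. The endothelial markers above the floor were dim, from 83.1 (Esam in control) to 140 (Kdr with S100a8). The lymphoid sum was lowest with S100a9, where Cd3e, the brightest of that list, read 613 against 686 in control. Of the 3 lymphoid markers above the floor, 3 were higher than control with S100a8 and 2 with S100a9. Several of the macrophage, lymphoid and endothelial markers were thus higher on the arrays where the Id genes were higher. The part of these markers in the Id values was not tested.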

How the data were processed

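RNA of 3 CT26.WT cultures was extracted with Trizol and read on Affymetrix mouse arrays as biotin-labelled cRNA, per the labels' protocols. The deposited values are linear intensities; the submitters' processing notes name MAS5. Its version and scaling target, and detection calls, were not given in the sources used. MAS5 corrects for mismatch probes, so dim values are noisy, and a common scale hides a change in total RNA per cell.

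Of 45101 probe sets, 64 controls were left out. The platform annotation, which can be old, gave 34945 a single symbol and 932 several, and left 9160 unnamed. The floor (50th percentile, 76.0) and all ratios were then made here (Python 3.11.15, pandas 2.3.3), with code tested on simulated data. The members and lists were chosen with earlier results of these data known. Genes named were all members, the 2 highest and 2 lowest S100a8 ratios of each list, and the 5 genes nearest to Id3 (1 clone name passed over). Nog, Chrd, Bambi, Smad6, Smad7, Tcf12 and further markers were named for their roles, after their values were seen.

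Alternatives were centring by the array median or by brightness (20 bins), quantile normalization, floors at percentiles 30 and 65, log2(value + 1) without a floor, no filter on dim genes, averaging a gene's probe sets, preferring probe sets whose names lack _x_at or _s_at, and 2-fold as the size.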

Additional observations from a re-analysis of the deposited data

How the results depend on the processing

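With 1 array per group nothing here measures replicate error. A ratio or median was taken as moved when it shifted by over 0.25 on the log2 scale, and a count when it changed by over 1.5 times. At a 2-fold size 1 member was higher with S100a8 and 0 with S100a9, against 3 and 1 at 1.5-fold. Of all compared genes 0.0449% were at least 2-fold higher with S100a8 and 0.009% with S100a9. At 1.5-fold with S100a9 the number of members was 2 under median centring and 2 under quantile normalization, where Id1 passed the size. With S100a8 the number was 2 in place of 3 under median centring and with the mean of all probe sets, where Id2 no longer passed the size. The numbers of members lower than control, and of those apart between the proteins, were 0 under every alternative. Over the alternatives the log2 ratio of Id3 ran from 1.13 to 1.21 with S100a8 and from 0.94 to 1.01 with S100a9, that of Id1 from 0.73 to 0.82 and from 0.55 to 0.62, and that of Id2 from 0.31 to 0.61 and from 0.23 to 0.28. The mean of all probe sets gave the low S100a8 value of Id2 (0.31), −0.08 for Id2 between the proteins and 0.27 for Smad5 with S100a9. The S100a9 median of the receptor and Smad genes ran from −0.03 to 0.04, so its sign is not settled. The S100a9 ratio of Smad5 was above 0 under 3 of 10 settings, and those of Bmpr1a and Acvr1 changed sign under 1 each. Scaling moved the background: genes at least 1.5-fold higher and lower with S100a8 numbered 126 and 213, but 86 and 278 under median centring and 79 and 250 when centred by brightness. With S100a9 they numbered 28 and 95, but 43 and 68 under median centring and 40 and 78 under quantile normalization. Between the proteins 11 and 112 became 26 and 49 under median centring, 17 and 80 under quantile normalization and 25 and 64 when centred by brightness. A floor at the 30th percentile gave 266 and 245 with S100a8, 49 and 134 with S100a9 and 20 and 244 between the proteins. A floor at the 65th gave 48 and 167, 15 and 69, and 5 and 25, and the mean of all probe sets gave 54 and 157, 17 and 69, and 9 and 47.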
